A study of Mus musculus with 21 samples.

Results

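Immediate early genes are the genes a cell transcribes first after a stimulus, from transcription factors that are already present and without new protein synthesis. In neurons they are switched on by synaptic activity and calcium entry, through CREB at cyclic AMP response elements and through SRF with its ternary complex factors at serum response elements, and in other cells by growth factors, serum or stress. Most of their products are transcription factors that act on later genes, while a few act at the synapse or feed back on the signal, and their transcripts are short-lived.

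The 10 genes described here are Fos, Fosb, Junb, Egr1, Egr2, Arc, Npas4, Nr4a1, Dusp1 and Ier2. They were chosen by symbol, and each symbol matched exactly 1 of the 42760 genes in the tables of the linc-Sox2 and linc-Foxf1a strains and 1 of the 40770 genes in the table of the linc-Brn1b strain. RNA-Seq was performed on mice that lacked 1 of 3 long intergenic noncoding RNAs (lincRNAs) and on their wild-type counterparts. The 10 groups were E18.5 brain of linc-Sox2+/+ and linc-Sox2-/- embryos, E14.5 lung of linc-Foxf1a+/+ and linc-Foxf1a-/- embryos, E13.5 telencephalon and E15.5 telencephalon of linc-Brn1b+/+ and linc-Brn1b-/- embryos, and P7 whole brain of linc-Brn1b+/+ and linc-Brn1b-/- pups. The labels list 2 libraries for each group and 3 for linc-Brn1b-/- at E15.5, for which the study's text gives a smaller number. The strains labelled linc-Sox2 and linc-Foxf1a are those the study calls Peril and Fendrr. In every knockout allele a lacZ reporter followed by a LoxP-flanked neomycin resistance gene took the place of the lincRNA, so that the loss of the transcript, the loss of its DNA and the inserted cassette came together. The mice came from ES cells of a hybrid between strains and were backcrossed once to C57BL/6J, so that DNA of the ES cells may still flank the targeted locus.

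Expression was given in FPKM, fragments scaled for transcript length and for the size of the library, as 1 value per gene and group. The tables hold no value per library, so the variation among animals and the sequencing depth are unknown, and no difference below was tested. Between 13392 and 14445 genes per group reached 1 FPKM. The linc-Brn1b entry was between 0.799 and 2.50 FPKM in the 3 wild-type groups of its strain and was listed at 0 in the 3 knockout groups. The entry covering Fendrr was at 38.4 FPKM in linc-Foxf1a+/+ and at 0.0450 FPKM in linc-Foxf1a-/- lung. The entry overlapping the Peril deletion went the other way, with 0.0109 FPKM in wild type against 4.65 FPKM in the libraries labelled linc-Sox2-/-, but it extends beyond the deleted part and so is no measure of the deleted transcript alone. All 4 Y-linked genes examined (Ddx3y, Eif2s3y, Kdm5d and Uty) were past 1.5 times apart in each of the 5 comparisons of knockout with wild type, higher in the knockout group of the linc-Sox2 strain and of the linc-Brn1b strain at E15.5 and P7 and lower in the knockout group of the other two, so that sex and genotype cannot be told apart.

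The promoters are shown here because the gene set is defined by how it is switched on. For 7 of the 10 genes (all but Egr1, Arc and Ier2) 11 entries of the RefSeq promoter table (build GRCm38.p6) were used, each running from 250 bases before the start to 50 from it on, and every one of the 11 was found exactly once in NCBIM37 (mm9), the build of the expression tables. The letters searched on both strands were the full cyclic AMP response element (CRE) TGACGTCA, its core site TGACG, the AP-1 site TGANTCA, the TATA box TATAAA and, by name, the CArG box at the core of the serum response element. A full CRE holds a core site on each strand, and those are counted as core sites too. Of the 7 genes, 7 had a CRE core site in at least 1 of their entries against 20.8% of 32851 promoters in the table, 1 had a full CRE (Dusp1) against 1.79%, 1 had a CArG box (Egr2) against 1.63%, 2 had a TATA box (Fos and Junb) against 13.6%, and 0 had an AP-1 site against 7.81%. The counts are per gene over all its entries, while the shares are per promoter entry. Egr2 has several entries, and not all of them hold a core site. Counted from the start, the TATA box match of Fos begins at -33 and that of Junb at 0. The Junb match thus lies on the start of the RefSeq entry. On the minus strand it lies before the GENCODE start of Junb, at chr8:87502617. A match describes letters in these windows and is no measurement of binding. In the 5 promoters below, capitals mark the CRE core site or full CRE, the CArG box and the TATA box, and positions count from the start.
Fos, on the plus strand at chr12:86814590-86814889, with core sites from -129 and -66 and the TATA box from -33: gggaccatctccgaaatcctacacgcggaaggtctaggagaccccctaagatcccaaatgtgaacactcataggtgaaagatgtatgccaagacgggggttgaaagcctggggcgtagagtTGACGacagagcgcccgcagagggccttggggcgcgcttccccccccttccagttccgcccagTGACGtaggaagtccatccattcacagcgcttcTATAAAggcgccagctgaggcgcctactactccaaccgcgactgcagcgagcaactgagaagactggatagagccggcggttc
Fosb, on the minus strand at chr7:19895345-19895644, with a core site from -60: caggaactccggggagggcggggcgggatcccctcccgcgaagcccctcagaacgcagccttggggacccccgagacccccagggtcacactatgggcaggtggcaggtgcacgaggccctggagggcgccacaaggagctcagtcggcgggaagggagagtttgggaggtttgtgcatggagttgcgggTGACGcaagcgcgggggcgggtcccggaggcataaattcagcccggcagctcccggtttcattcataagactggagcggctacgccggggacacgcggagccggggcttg
Egr2, on the plus strand at chr10:67000367-67000666, with a CArG box from -72 and core sites from -111 and, on the other strand, from -55: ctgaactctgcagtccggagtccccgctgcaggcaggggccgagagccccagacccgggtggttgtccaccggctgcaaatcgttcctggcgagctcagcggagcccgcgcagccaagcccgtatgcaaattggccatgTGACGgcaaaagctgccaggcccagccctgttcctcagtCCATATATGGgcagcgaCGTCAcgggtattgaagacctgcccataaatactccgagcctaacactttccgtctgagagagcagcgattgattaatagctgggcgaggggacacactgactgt
Nr4a1, on the plus strand at chr15:101097027-101097326, with core sites on the other strand from -233, -213, -69 and -40: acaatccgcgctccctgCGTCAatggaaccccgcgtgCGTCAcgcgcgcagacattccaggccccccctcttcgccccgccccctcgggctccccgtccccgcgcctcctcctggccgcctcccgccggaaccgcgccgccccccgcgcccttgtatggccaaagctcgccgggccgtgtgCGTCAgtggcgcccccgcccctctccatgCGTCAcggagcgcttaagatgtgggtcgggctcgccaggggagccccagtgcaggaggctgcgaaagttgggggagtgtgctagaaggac
Dusp1, on the minus strand at chr17:26645368-26645667, with the full CRE from -143 and a further core site from -191: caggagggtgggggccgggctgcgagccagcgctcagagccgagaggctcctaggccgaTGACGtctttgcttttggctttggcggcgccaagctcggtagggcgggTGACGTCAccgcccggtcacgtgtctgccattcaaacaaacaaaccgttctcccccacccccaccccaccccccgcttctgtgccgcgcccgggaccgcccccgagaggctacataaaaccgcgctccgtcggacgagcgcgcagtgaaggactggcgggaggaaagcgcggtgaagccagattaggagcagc

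In wild-type tissue the 10 genes covered a wide span of levels. In E18.5 brain of the linc-Sox2 strain Dusp1, a phosphatase that switches off MAP kinases, was highest at 9.38 FPKM, and Fosb, an AP-1 subunit, was lowest at 0.115 FPKM. In E14.5 lung Ier2, a short nuclear protein gene of the serum response, led with 18.4 FPKM, followed by Dusp1 at 7.49 FPKM, while Npas4, a neuronal transcription factor, stood at 0.308 FPKM. Dusp1 was again first in wild-type telencephalon, with 15.1 FPKM at E13.5 and 17.1 FPKM at E15.5. At P7 the order was different, with Egr1 at 7.66 FPKM, Nr4a1 at 6.19 FPKM and Dusp1 at 4.91 FPKM as the first 3 of the 10 and Fosb last at 0.279 FPKM. Whether neighbours in these orders differ beyond the spread between animals cannot be said from 1 value per group. Across the 10 groups 8 of the genes had their highest value in P7 linc-Brn1b-/- brain, namely all but Dusp1, which was highest in linc-Brn1b-/- telencephalon at E15.5 with 17.3 FPKM, and Ier2, which was highest in linc-Foxf1a-/- lung with 20.0 FPKM. The 3 tables were normalized separately, so levels set side by side across strains are only approximate.

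**Figure D1:**
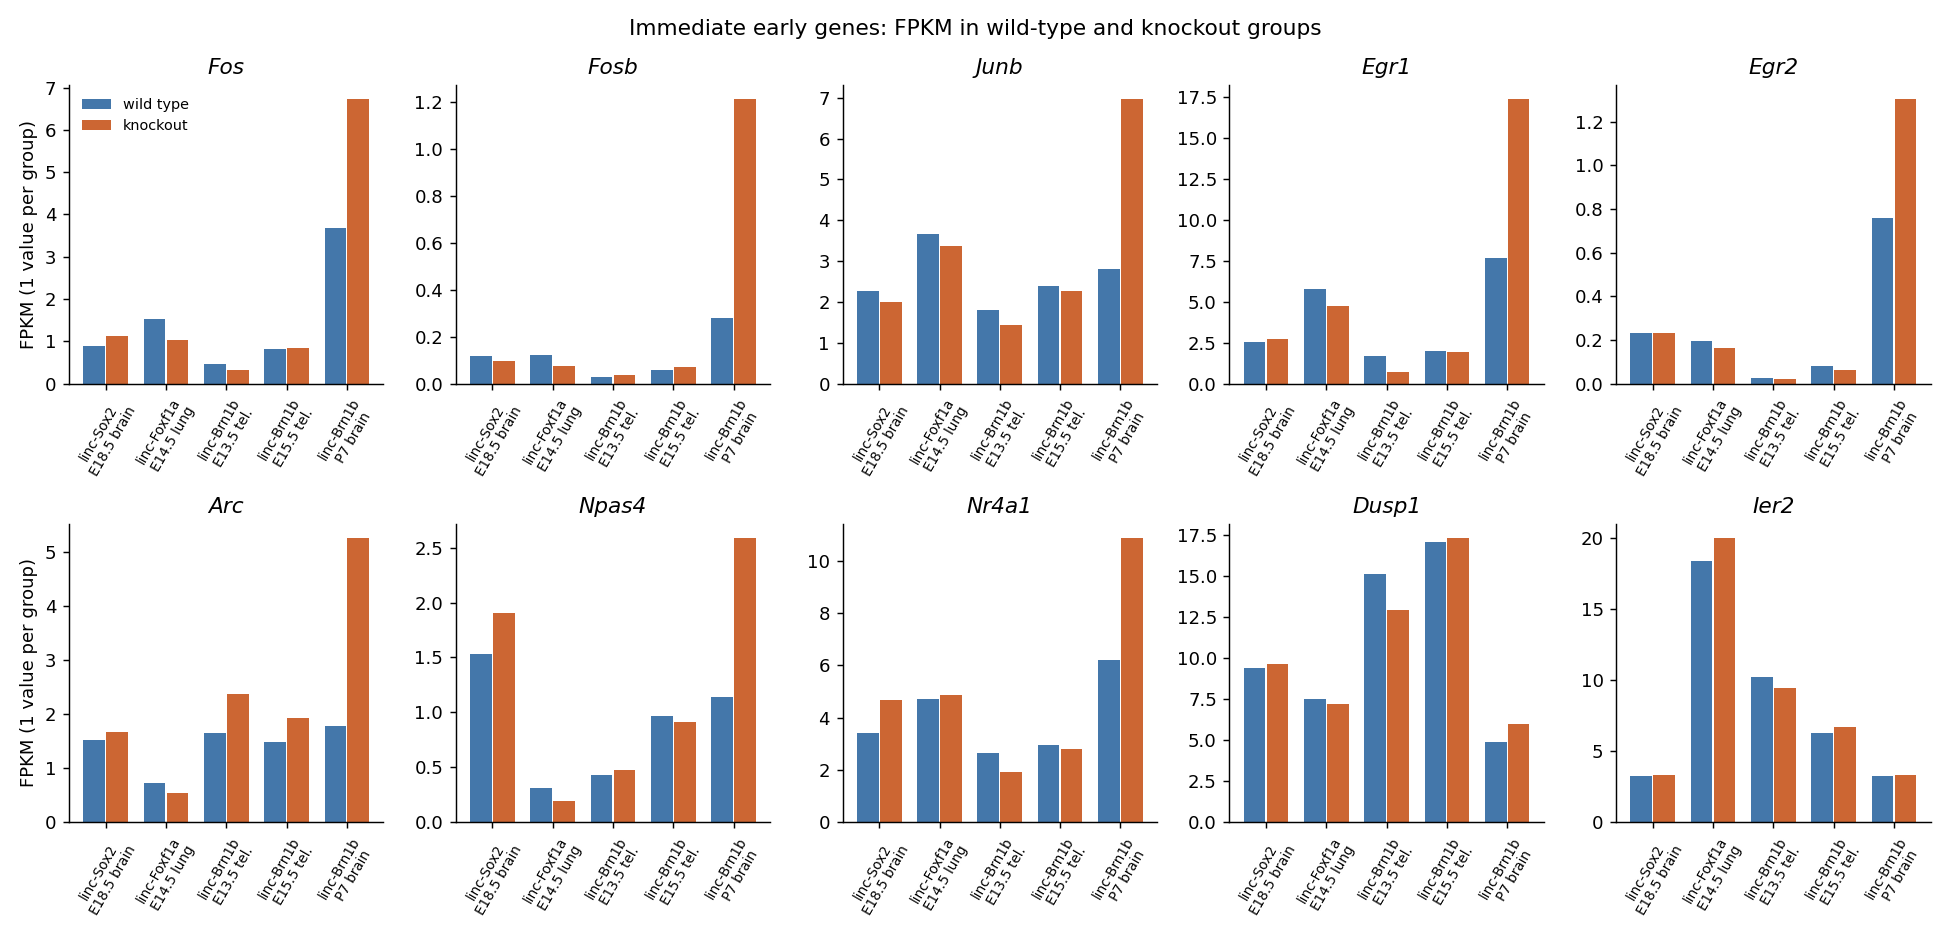
Bars give the FPKM value of each of the 10 immediate early genes in wild-type (blue) and knockout (orange) groups of the 5 comparisons, with 1 value per group, no error bars because no value per library is given, and a separate axis from 0 for each gene. In 8 of the 10 panels the tallest bar is that of P7 linc-Brn1b-/- brain, and in the panels of Dusp1 and Ier2 it is not.

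The comparison at P7 was between linc-Brn1b-/- and linc-Brn1b+/+ libraries labelled whole brain. Markers of hindbrain and pituitary, given below, were lower or listed at 0 in knockout. Genotype and the region dissected therefore cannot be told apart in this comparison. All 10 immediate early genes had the higher value in linc-Brn1b-/- brain, and their summed level was 32.4 FPKM in wild type against 61.6 FPKM in knockout. Differences are given as knockout minus wild type of log2(FPKM + 1), a scale that understates the change of genes near or below 1 FPKM. A gene is called past the fold where FPKM + 1 differed by at least 1.5 times, among genes with a mean of at least 1 FPKM over the pair of groups. By this rule 6 of the 10 genes were past the fold on the higher side and 0 on the lower side, against 2.08% higher and 2.24% lower of 14175 genes. The median difference was 0.72 over the 9 genes that passed the mean, and 0.01 over all 14175 genes. Among the 8887 genes of 1 to 15 FPKM, the levels at which most of the 10 lie, 2.58% were past the fold on the higher side and 2.8% on the lower side. More cells that carry a transcript and more transcript per cell cannot be told apart in these bulk samples.

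The AP-1 subunits differed by unlike amounts. Fos, the partner of JUN proteins in AP-1, was at 3.68 FPKM in wild type against 6.73 FPKM in knockout, a difference of 0.72 and a ratio of 1.83. Junb, a JUN protein with weaker activation than JUN itself, was at 2.81 and 6.97 FPKM, a difference of 1.07 and a ratio of 2.48. Fosb was at 0.279 and 1.21 FPKM, the highest ratio of the 10 at 4.34, but its mean was under 1 FPKM and it was not counted. In wild type Fosb was thus near the floor of the scale and Fos and Junb were not.

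The zinc finger factors of the EGR family were both higher. Egr1, a factor induced by growth factors and by synaptic activity, was at 7.66 FPKM in wild type against 17.4 FPKM in knockout, a difference of 1.08 and a ratio of 2.27. Egr2, known for its part in hindbrain segmentation and in myelinating Schwann cells, was at 0.759 and 1.30 FPKM, a difference of 0.39 that did not reach the fold, and it passed the mean of 1 FPKM only through the knockout value. Nr4a1, an orphan nuclear receptor, was at 6.19 FPKM in wild type against 10.9 FPKM in knockout, a difference of 0.72 and a ratio of 1.76.

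Both genes tied most closely to neuronal activity were past the fold. Arc, whose protein acts at the postsynaptic density in the removal of AMPA receptors, was at 1.79 FPKM in wild type against 5.26 FPKM in knockout. Its difference of 1.17 was the greatest of the 10, and it ranked at place 48 of 14175 genes. Npas4, a bHLH-PAS factor that answers to calcium entry, was at 1.14 and 2.59 FPKM, a difference of 0.74. The ranks of Egr1, Junb, Npas4, Nr4a1 and Fos were 56, 58, 132, 150 and 152. As 295 genes were past the fold on the higher side, a place among the first 295 follows from the call itself.

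The remaining pair stood apart from the rest. Dusp1, with the full CRE in its promoter, was at 4.91 FPKM in wild type against 5.97 FPKM in knockout, a difference of 0.24 at place 2325. Ier2 was at 3.24 and 3.30 FPKM, a difference of 0.02 at place 6872, close to the middle of all genes. The CRE core site was found in at least 1 promoter entry of each of the 7 genes. No gene without it was there to compare, so the site cannot be set against the differences. The promoters of Ier2, Arc and Egr1 were not examined.

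**Figure D2:**
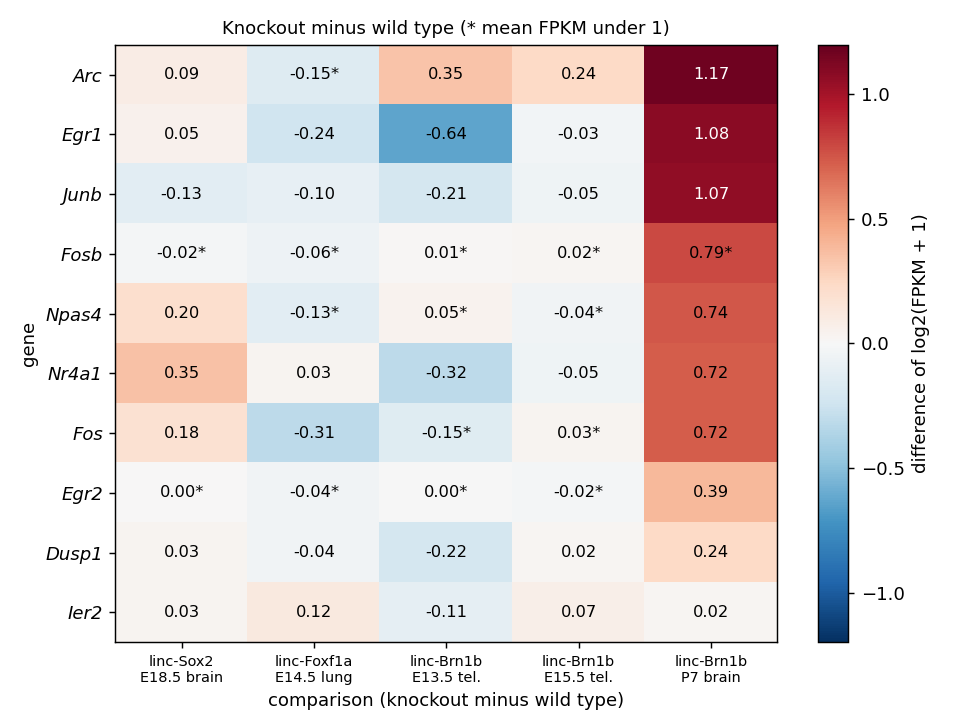
Colours and numbers give the difference of log2(FPKM + 1), knockout minus wild type, for each of the 10 genes (rows, ordered by the P7 difference) in each of the 5 comparisons (columns), with an asterisk where the mean of the pair was under 1 FPKM. The P7 column is positive in all 10 rows, from 0.02 for Ier2 to 1.17 for Arc, and no other column holds a positive value past the fold.

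**Figure D3:**
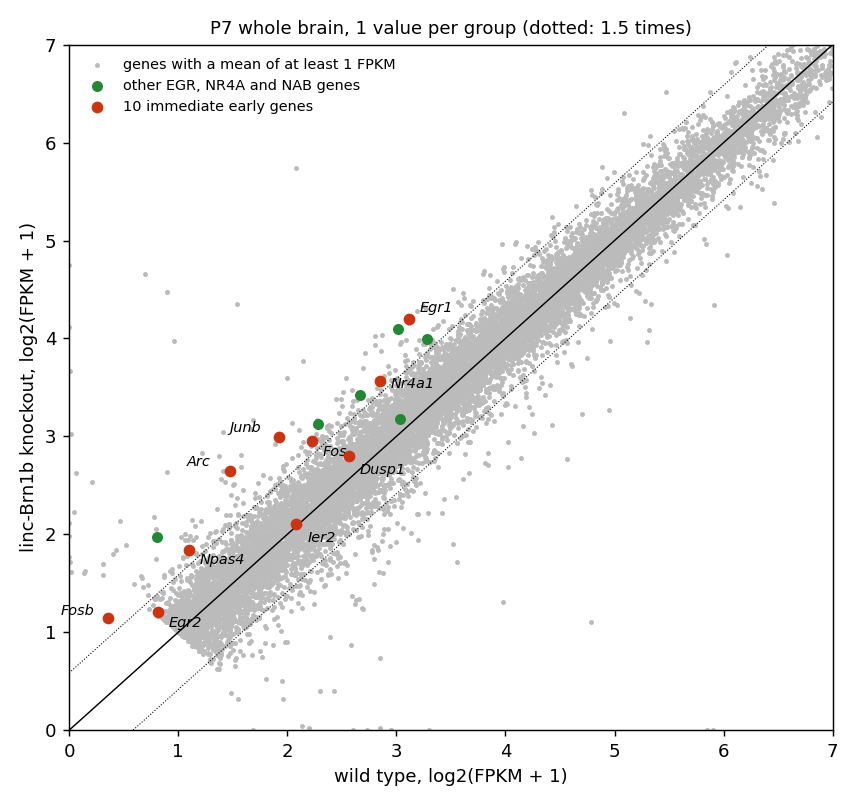
Each grey point is a gene with a mean of at least 1 FPKM in P7 brain, at its log2(FPKM + 1) in wild type (horizontal) and linc-Brn1b knockout (vertical), with the 10 immediate early genes in red, the other EGR, NR4A and NAB genes in green, dotted lines at 1.5 times, and both axes ending at 7. Arc, Egr1, Junb, Npas4, Nr4a1, Fos and Fosb lie above the upper dotted line, Egr2 and Dusp1 between it and the diagonal, and Ier2 next to the diagonal.

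Relatives of the 10 genes were examined through lists of related genes. Of 6 other members of the EGR and NR4A families and their NAB corepressors, 5 were past the fold on the higher side at P7, with a median of 0.80 over the list. Egr4 was at 0.748 FPKM in wild type against 2.93 FPKM in knockout (difference 1.17), passing the mean only through the knockout value, Egr3 at 7.11 and 16.1 FPKM (1.07) and Nab2, a corepressor that EGR factors induce, at 3.85 and 7.73 FPKM (0.85). Nr4a3 (0.76) and Nr4a2 (0.71), named after their values were seen, were the other two, and Nab1 had a difference of 0.14. Of 6 other AP-1 subunits, 3 passed the mean and 0 were past the fold, with differences of 0.58 for Fosl2, 0.41 for Jund and 0.37 for Jun.

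A broader list of growth factor and serum primary response genes did not share this shift. Of its 26 genes 24 passed the mean, 2 were past the fold on the higher side, 1 was past it on the lower side, and the median was 0.02. Pim1, a kinase gene, was at 4.78 FPKM in wild type against 2.26 FPKM in knockout (difference -0.83), Ctgf, a matricellular protein gene, at 7.58 and 12.7 FPKM (0.67), and Gadd45b, a stress and activity response gene, at 1.49 and 2.81 FPKM (0.61). Activity-regulated effector genes of neurons had values on the higher side in 11 of 11 cases, with 2 past the fold and a median of 0.30. The median over all 14175 genes was 0.01. Nptx1, a pentraxin that gathers AMPA receptors, was at 8.23 and 14.8 FPKM (0.78), Vgf, a secreted neuropeptide precursor, at 27.3 and 42.5 FPKM (0.62), and Pcsk1, a prohormone convertase, at 4.05 and 6.26 FPKM (0.52). Of 16 kinases and transcription factors that act upstream, 1 was past the fold, with a median of 0.12. That gene was Mkl2, an SRF coactivator, at 9.44 and 16.6 FPKM (0.75).

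Markers of regions and cell types were set beside these values, since several moved together with them at P7. Of 10 markers of cerebellum and hindbrain, a list chosen after the data were seen, 8 passed the mean and 8 of 8 were past the fold on the lower side in linc-Brn1b-/- brain, with a median of -1.67. Barhl1, En2, Hoxa5, Hoxb5 and Slc6a5 passed the mean only through the wild-type value. The summed level of the list was 112 FPKM in wild type against 44.4 FPKM in knockout. Zic1 and Cbln1 were the highest of the list in both groups and weigh most in this sum. They do not mark the posterior brain alone, since wild-type E15.5 telencephalon had them at 38.1 and 9.77 FPKM. Markers low in that telencephalon fell further at P7. Pcp2 was at 14.7 FPKM in wild type against 1.48 FPKM in knockout, Slc6a5 at 3.93 and 0.323 FPKM and Hoxb5 at 3.61 and 0.0165 FPKM. Hoxa5 was listed at 0 in knockout. Of 4 pituitary hormone genes, also listed after the data were seen, both that passed were past the fold on the lower side, the summed level was 33.8 and 1.17 FPKM, and Cga and Prl were listed at 0 in knockout. Gh passed the mean only through the wild-type value. The P7 libraries are labelled whole brain, and the markers of both lists were lower or listed at 0 in the knockout group. Genotype and the region dissected thus cannot be told apart at P7. Markers of forebrain projection neurons, the third list added, had a summed level of 88.9 FPKM in wild type against 102 FPKM in knockout, with 0 of 8 past the fold and a median of 0.18. Choroid plexus markers had a summed level of 459 and 314 FPKM and 1 of 6 past the fold on the lower side (Folr1).

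Among neuronal lists, that of excitatory synapse genes had a median of 0.43, with 2 of 6 past the fold on the higher side. These were Camk2a, a kinase of the postsynaptic density, at 87.0 and 198 FPKM (1.18), and Slc17a7, a vesicular glutamate transporter, at 102 and 187 FPKM (0.86). Pan-neuronal markers had 0 of 5 past the fold and a median of 0.13, and telencephalon markers 0 of 6 and 0.12. Heat shock and stress genes had 0 of 7 past the fold and a median of 0.04, endothelial markers 0 of 6 and -0.07, and microglia and macrophage markers 0 of 6 and 0.17. Erythroid markers had 0 of 3 past the fold and a median of 0.41. The 4 Y-linked genes summed to 0.0357 FPKM in wild type against 23.2 FPKM in knockout at this age. The part of region, cell makeup and sex in the P7 values of the immediate early genes was not tested.

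**Figure D4:**
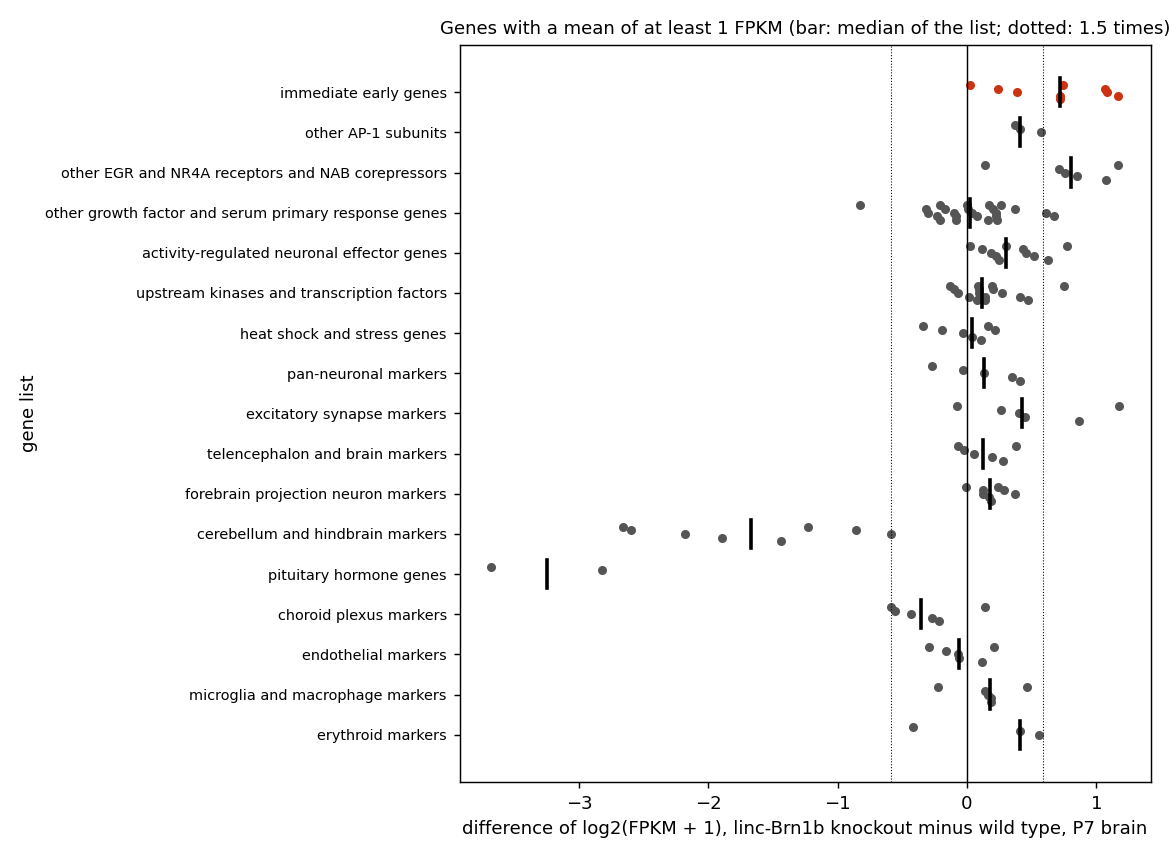
Each point is a gene with a mean of at least 1 FPKM at its difference of log2(FPKM + 1), linc-Brn1b knockout minus wild type in P7 brain, grouped by list, with a bar at the median of each list and dotted lines at 1.5 times. The immediate early genes (median 0.72) and the other EGR, NR4A and NAB genes (0.80) lie on the higher side, and the cerebellum and hindbrain markers (-1.67) and pituitary hormone genes (-3.25) lie on the lower side. Several genes of these lower lists passed the mean only through the wild-type value.

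Several of the 10 genes share their locus in the authors' transcript catalogue with another entry, and the kit and counting are not stated to use strand, so fragments from overlapping transcripts may be split between them. At P7 the antisense entries linc-Fos-AS, linc-Fosb-AS and linc-Arc-AS were at most 0.0205 FPKM in either group, far below their partners. The entry linc-Npas4-BP was at 0.369 FPKM in wild type against 0.784 FPKM in knockout, higher in knockout as Npas4 was, and linc-Nr4a1-AS was at 0.425 and 0.609 FPKM. The entry AK006748, which shares the locus of Junb, was at 8.60 FPKM in wild type against 4.37 FPKM in knockout, opposite to Junb. In E18.5 brain of the linc-Sox2 strain AK006748 was likewise lower in the libraries labelled knockout, at 8.57 and 3.39 FPKM, and there Junb was at 2.27 and 2.00 FPKM. The P7 value of Junb is uncertain in this respect. Ier2 shares its locus with Nacc1, which was at 26.7 and 25.3 FPKM at P7. In GENCODE on NCBIM37, Junb is a gene of 1 exon at chr8:87500811-87502617 on the minus strand, Ier2 one of 1 exon at chr8:87185230-87186751 on the minus strand, Arc one of 3 exons at chr15:74499513-74503000 on the minus strand and Npas4 one of 8 exons at chr19:4984355-4989971 on the minus strand.

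At the embryonic ages of the same strain the 10 genes did not show the P7 pattern. In E15.5 telencephalon 5 of the 10 were higher and 5 lower in linc-Brn1b-/-, 0 were past the fold in either direction, against 0.2% of 13521 genes higher and 0.274% lower, and the median over the 6 that passed the mean was -0.00. The values there were 0.807 and 0.847 FPKM for Fos, 1.97 and 1.91 FPKM for Egr1, 1.48 and 1.93 FPKM for Arc and 0.969 and 0.911 FPKM for Npas4, wild type first. Arc, with a difference of 0.24, was the farthest from 0 of the 10. Choroid plexus markers had a summed level of 247 FPKM in wild type against 5.82 FPKM in knockout at E15.5, with 4 of the 5 that passed past the fold on the lower side and a median of -1.71, and their part in the E15.5 values was not tested. Among them Aqp1, Clic6 and Folr1 passed the mean only through the wild-type value. In E13.5 telencephalon 3 of the 10 were higher and 7 lower, with a median of -0.21 over the 6 that passed, against 0.06 over all 13507 genes. By the same rule 1 gene was past the fold on the lower side and 0 on the higher side, against 5.52% and 1.55% of all genes. This was Egr1, at 1.67 FPKM in wild type against 0.720 FPKM in knockout, a difference of -0.64, and it passed the mean only through the wild-type value. Arc had the opposite sign, with 1.66 and 2.38 FPKM and a difference of 0.35. Nr4a1 was at 2.65 and 1.93 FPKM (-0.32), while its relative Nr4a3 was at 2.69 and 4.73 FPKM (0.63), the single gene of the other EGR, NR4A and NAB genes past the fold there. At E13.5 endothelial markers had a median of -0.37 and microglia and macrophage markers of -0.31, with summed levels of 59.7 and 40.6 FPKM and of 20.8 and 14.8 FPKM, and excitatory synapse markers a median of 0.31. Their part in the E13.5 values was not tested. In GENCODE, Egr1 is a gene of 2 exons at chr18:35020861-35024638 on the plus strand, and Gm17507 overlaps it on the other strand.

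In E18.5 brain 7 of the 10 genes were higher in the libraries labelled linc-Sox2-/-, 2 were lower and 1 was level within 1%, and 0 were past the fold, against 0.958% of 14405 genes higher and 0.666% lower. The median was 0.07 over the 8 that passed the mean, against 0.003 over all 14405 genes. Nr4a1 was the farthest apart, at 3.42 FPKM in wild type against 4.65 FPKM in the libraries labelled knockout (difference 0.35), followed by Npas4 at 1.53 and 1.91 FPKM (0.20) and Fos at 0.884 and 1.13 FPKM (0.18). Egr2, the level gene, was at 0.231 FPKM in both groups. The signs follow the labels, and the entry that overlaps the Peril deletion, which was higher in the libraries labelled knockout, does not settle them because it reaches outside the deletion. The study took RT-PCR of Peril in E18.5 brain of mutants and wild-type littermates as showing the deletion.

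In E14.5 lung 8 of the 10 genes were lower in linc-Foxf1a-/-, 4 of them among the 6 that passed the mean. Past the fold were 0, against 1.41% of 13979 genes higher and 0.808% lower. The median was -0.07 over the 6 that passed, against 0.004 over all 13979 genes. Fos was the farthest apart, at 1.52 FPKM in wild type against 1.03 FPKM in knockout (difference -0.31), followed by Egr1 at 5.76 and 4.73 FPKM (-0.24). Ier2, at 18.4 and 20.0 FPKM (0.12), and Nr4a1, at 4.72 and 4.86 FPKM (0.03), were the 2 on the higher side. Cardiac muscle markers were past the fold in 6 of 6 cases in this comparison, with summed levels of 305 FPKM in wild type against 944 FPKM in knockout, and endothelial markers had a median of -0.30. Their part in the lung values was not tested.

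Age was compared within each genotype of the linc-Brn1b strain. The tissue changed with age from telencephalon to whole brain between E15.5 and P7, so age and dissection cannot be told apart there. The 4 Y-linked genes summed to 49.2 FPKM at E13.5 and 0.00662 FPKM at E15.5 in wild type, and to 0.0133 and then 21.0 FPKM in knockout, so age and sex cannot be told apart between those ages. From E13.5 to E15.5 in wild type, 1 gene was past the fold on the lower side, against 8.06% of 13539 genes, and 0 on the higher side, against 8.66%. This was Ier2, at 10.3 FPKM and then 6.31 FPKM (difference -0.62). In knockout 1 gene was past the fold on the higher side, against 10.4% of 13569 genes, and 0 on the lower side, against 7.56%. This was Egr1, at 0.720 and then 1.91 FPKM (0.76), which passed the mean only through the E15.5 value. Choroid plexus markers in knockout summed to 214 FPKM at E13.5, 5.82 FPKM at E15.5 and 314 FPKM at P7, and their part in the age differences was not tested.

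Between E15.5 and P7 the members parted. In wild type 3 were past the fold on the higher side, against 23.5% of 14152 genes, and 2 on the lower side, against 27.2%. Egr1 went from 1.97 to 7.66 FPKM (1.54), Fos from 0.807 to 3.68 FPKM (1.37) and Nr4a1 from 2.94 to 6.19 FPKM (0.87), while Dusp1 went from 17.1 to 4.91 FPKM (-1.61) and Ier2 from 6.31 to 3.24 FPKM (-0.79). Fos passed the mean only through its P7 value. Arc, at 1.48 and 1.79 FPKM, and Junb, at 2.39 and 2.81 FPKM, were nearly level. Set against the shares of all genes, these counts are near the background in both directions. In knockout 6 were past the fold on the higher side, against 24.5% of 14109 genes, and 2 on the lower side, against 27.4%. Egr1 went from 1.91 to 17.4 FPKM (2.66), Fos from 0.847 to 6.73 FPKM (2.06), Nr4a1 from 2.80 to 10.9 FPKM (1.64), Junb from 2.27 to 6.97 FPKM (1.28), Arc from 1.93 to 5.26 FPKM (1.10) and Npas4 from 0.911 to 2.59 FPKM (0.91), of which Fos and Npas4 passed the mean only through the P7 value. Dusp1 and Ier2 were lower at P7 in knockout as well, at 17.3 and 5.97 FPKM (-1.40) and at 6.67 and 3.30 FPKM (-0.83). Both age comparisons at P7 contain the same groups as the P7 comparison of genotypes, so they are not separate evidence on it.

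Genes with the most similar pattern were sought among 1050 genes that passed the mean in all 3 tables and were past the fold in at least 1 of the 5 comparisons of knockout with wild type. The 10 members and entries with Gm, Rik, linc or similar catalogue names were left out of these 1050. Likeness was the Pearson correlation, over these 5 comparisons, of a gene's differences with the median of the 10 immediate early genes. The 5 most alike were Nab2 (0.995), Gadd45b (0.993), Dact2 (0.987), Pim2 (0.983) and Myadm (0.979). At P7 Dact2 was at 5.23 and 9.38 FPKM and Myadm at 13.4 and 20.7 FPKM, wild type first. With 5 points, of which the P7 comparison is the farthest out, such values describe little more than a high value at P7, and 3 of the comparisons come from 1 table. Pomc, a hormone precursor of the pituitary, was near the opposite end at -0.964.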

How the data were processed

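From total RNA of the tissues 21 mRNA-Seq libraries were prepared with the TruSeq RNA kit and sequenced as paired-end reads. According to the study's methods and the submitters' processing notes, reads were aligned to mm9 with TopHat2, assembled with Cufflinks (version 2.0.2) and quantified with Cuffdiff2 under default options. The authors deposited 3 tables that give FPKM as 1 value per gene and group, normalized within a table, with 0 columns of values per sample. They also hold the authors' fold changes, test statistics, p-values and q-values, which were not used.

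Differences of log2(FPKM + 1) were computed with Python 3.11.15, pandas 2.3.3 and numpy 2.4.6, with a pseudocount of 1 FPKM, a mean of at least 1 FPKM over the groups compared and a fold of 1.5. The calls and the likeness were tested on simulated data. Figures were drawn with matplotlib 3.10.9. Positions are those of GENCODE on NCBIM37. Named genes are the 10 members, up to 3 genes per list with the greatest absolute difference, the 5 most alike genes and, chosen after their values were seen, the entries at shared loci and the genes said to be so. The members, the 16 other lists and the rules were chosen with earlier results of these data known, and 3 further lists were added after the data were seen. Alternatives were a pseudocount of 0.1 FPKM, no pseudocount, all genes above 0, a mean of at least 5 FPKM, centring on the median of all genes, a fold of 2, a Spearman correlation for the likeness and, added after the data were seen, a background of genes from 1 to 15 FPKM.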

Additional observations from a re-analysis of the deposited data

How the results depend on the processing

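No paired analysis was possible because the tables hold 1 value per group, and for the same reason leaving out each replicate in turn was not run and depth sets an unknown limit. All 10 genes were higher in P7 linc-Brn1b-/- brain with a pseudocount of 1 or 0.1 FPKM, with none, and after centring. Of 270 single-gene differences under an alternative, 246 moved by less than 1.5 times, 24 by more, and 3 changed sign, all under centring and all within 0.046 of 0 before it (Egr2 at E18.5, Fosb and Npas4 at E13.5). The 6 genes past the fold at P7 became 3 with a mean of at least 5 FPKM, where 4 of the genes remain to be counted, and 3 with a fold of 2. The pseudocount of 0.1 FPKM gave 7, against 3.43% of all genes, and counting all genes above 0 gave 7, against 1.11%. With a mean of at least 5 FPKM or a fold of 2, the 1 gene on the lower side at E13.5 became 0. For wild type from E13.5 to E15.5 the 1 gene on the lower side became 0 with a fold of 2. For wild type from E15.5 to P7 a mean of at least 5 FPKM, which leaves only Dusp1, turned 3 on the higher side into 0, 2 on the lower side into 1 and the median of 0.17 into -1.61, and a fold of 2 gave 1 on the lower side. For knockout from E13.5 to E15.5 the 1 gene on the higher side became 2 with a pseudocount of 0.1 FPKM and 0 with a mean of at least 5 FPKM or a fold of 2. For knockout from E15.5 to P7 the 6 on the higher side became 2 with a mean of at least 5 FPKM, and the 2 on the lower side became 1 there and with a fold of 2. Of the 5 genes most alike, 2 (Nab2 and Gadd45b) were kept by the Spearman correlation and 2 by the pseudocount of 0.1 FPKM.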

Other observations

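Heat shock and stress genes are also induced quickly, and their values are given beside those of the immediate early genes. In E18.5 brain of the linc-Sox2 strain 6 of the 7 heat shock and stress genes that passed the mean were lower in the libraries labelled knockout, with a median difference of -0.26 beside 0.07 for the immediate early genes. Hspa1a, an inducible chaperone gene, was at 1.97 FPKM in wild type against 1.18 FPKM in the libraries labelled knockout, and Hspb1, a small heat shock protein gene, at 3.31 and 2.24 FPKM. In E14.5 lung 5 of 6 were higher in linc-Foxf1a-/-, with a median of 0.07 beside -0.07, and Hspb1 was at 19.1 and 27.7 FPKM. In E13.5 telencephalon the heat shock median was 0.01, with 3 of 5 higher in knockout, beside -0.21. In E15.5 telencephalon the heat shock median was 0.02, with 4 of 5 higher in knockout, beside -0.00.

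From E15.5 to P7 in wild type, 6 of 11 effector genes of neuronal activity were past 1.5 times on the higher side with a median difference of 1.32, against 23.5% of 14152 genes. Bdnf and Pcsk1 passed the mean only through the P7 value. The median of 0.17 for the immediate early genes is over members that went both ways. Vgf was at 2.17 FPKM at E15.5 and 27.3 FPKM at P7, Penk, the precursor of enkephalins, at 4.94 and 43.4 FPKM, and Scg2, a granin of secretory vesicles, at 17.8 and 116 FPKM. In the same comparison excitatory synapse markers were past the fold in 6 of 6 cases with a median of 2.06, and telencephalon markers were lower in 5 of 6 with a median of -2.17.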
